A study of Mus musculus with 16 samples.

Results

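The Rab GTPase genes were taken from the table of mouse mammary gland RNA by their symbols: Rab, a number and at most a letter and a digit. This gave 58 genes of the 24187 in the table. Of these, 47 had a mean of at least 1 FPKM (fragments per kilobase of gene, scaled to library size, so a level per length) over the 7 RNA libraries and were tested, among 13392 genes tested in all. They were placed by textbook role into 22 secretory members (16 tested), 19 endosomal members (18 tested) and 17 other members (13 tested). Poly(A) RNA from mammary tissue taken on pregnancy day 13 was sequenced as 4 wild-type libraries (WT) and 3 libraries of Socs2-Δs mice (Mut), all labelled C57BL/6. The wild-type mice were purchased, and the Socs2-Δs line was made by CRISPR/Cas9 genome editing, so the source of the mice and the genotype run together. Nothing in the labels ties a replicate to an animal of its own. The p-values therefore measure only how far these libraries spread, which may be technical. The labels give neither ages nor the sequence that was edited.

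Rab proteins are small GTPases that give membranes of the cell their identity. In the GTP-bound form a Rab sits on a vesicle or organelle and recruits effectors such as tethers and motors; exchange factors (GEFs) load it with GTP, and GTPase-activating proteins (GAPs) switch it off. In the mammary gland, alveolar cells that prepare for lactation build a large route from the endoplasmic reticulum through the Golgi to the apical surface, and they also recycle and transcytose cargo through endosomes.

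Some facts of the libraries bear on every value given for these genes. Recovered depth was 21.0 to 24.1 M (mega) reads per library. For the 3 mutant libraries the genotype field says wild type while title and source name say Mut, and the groups follow the titles. Socs2, for which the line is named, measured 25.6, 22.1, 24.8 and 16.1 FPKM in the wild-type libraries, in replicate order, and 17.1, 13.9 and 16.0 in the mutant ones. The groups overlapped, with a log2 difference of -0.46 (SE 0.19, limma adjusted p = 0.267). With replicates 3 and 4 of the wild type left out they did not overlap (-0.58, adjusted p = 0.0881). Wild-type replicates 3 and 4 stood apart: Alb, the albumin gene of liver, measured 80.9 and 1137 FPKM there and 2.70 to 6.15 in the other 5 libraries. The median of 8 salivary gland markers was 21.5 and 8.40 FPKM in these replicates and 0.0965 to 0.755 in the others; the part of this RNA in the Rab values was not tested. The counts and class medians are therefore given with all 7 libraries and again without wild-type replicates 3 and 4 (5 libraries). Markers of luminal epithelium (14 of 14 genes found) summed to 831 to 1899 FPKM in wild-type and 1542 to 2305 in mutant libraries, with wild-type replicate 4 lowest. Milk-secretory alveolar markers (10 of 10) summed to 3477 to 31961 and 59408 to 75851 FPKM, and adipocyte markers (9 of 9) to 10500.0 to 22921 and 3434 to 6634. The defining markers of these lists, Epcam, Krt8 and Krt18, Csn2, Wap and Lalba, and Adipoq and Plin1, were above 0 in every library. In such bulk tissue, fewer cells of a type and less RNA per cell cannot be told apart.

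The family was broadly expressed, and its most abundant members were those of the general secretory and endocytic routes. Over the 7 libraries the highest mean levels were those of Rab1 (94.0 FPKM), Rab2a (92.9) and Rab1b (92.3), which serve transport between the endoplasmic reticulum and the Golgi. Rab7 of late endosomes (91.3) followed closely, then Rab5c of early endosomes (74.3) and Rab14 of recycling routes (56.6). The first 4 of these did not separate from each other, since each ranged by more across libraries than their means differed: Rab1, for example, ran from 73.1 to 127 FPKM. The 10 most abundant members held 50.4 to 56.4% of the summed Rab FPKM of a library. By role, endosomal members held 43.2 to 48.5% of that sum, secretory members 35.6 to 40.0% and other members 15.1 to 17.0%. The endosomal share was 43.2 to 46.8% in wild-type and 48.3 to 48.5% in mutant libraries, without overlap, and the secretory share overlapped between the groups. The endosomal sum includes Rab4a, Rab15 and Rab25, which were each higher in every mutant library than in any wild-type one. The share without these members was not computed, so no shift of the whole class is read from it. Of the 58 genes, 32 had a mean over 10 FPKM and 15 lay between 1 and 10.

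**Figure D1:**
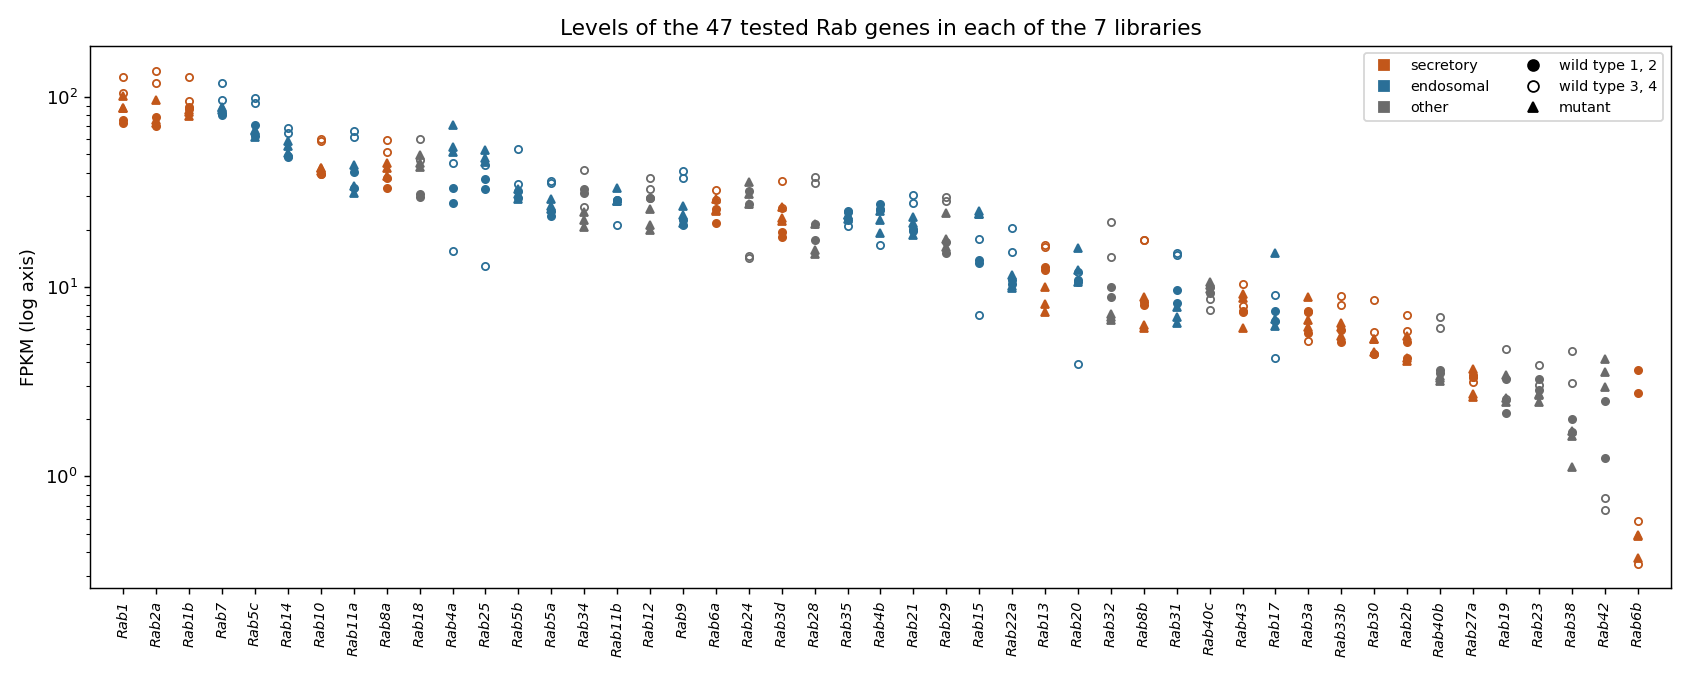
FPKM (log axis) of the 47 tested Rab genes, ordered by mean, with 1 symbol per library: circles for wild type (open for replicates 3 and 4), triangles for Socs2-Δs, coloured by role. Levels run from a mean of 94.0 for Rab1 to 1.24 for Rab6b, and in 26 genes both open circles lie above all other symbols.

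No Rab gene passed the test with all 7 libraries. Of the 47 tested, 0 were called (limma, Benjamini-Hochberg adjusted p under 0.05 over all 13392 genes), where 0.0448% of all genes tested were called. At an unadjusted p under 0.05 there were 8 members (17.0%), against 18.1% of all genes. Every mutant library lay above every wild-type one for 4 members, Rab4a, Rab15, Rab25 and Rab42 (8.51%, against 12.5% of all genes). Every mutant library lay below for 8 members, Rab1b, Rab12, Rab13, Rab23, Rab31, Rab32, Rab34 and Rab40b (17.0%, against 10.0%). The first of these shares lay below that of all genes and the second above it, and neither difference was tested. Without wild-type replicates 3 and 4, 2 of 47 members were called, Rab15 higher and Rab6b lower (4.26%, against 1.94% of all genes). In that comparison 11 members had an unadjusted p under 0.05 (23.4%, against 20.1%). The groups were apart with the mutant higher for 13 members (27.7%, against 21.8%) and with the mutant lower for 10 (21.3%, against 18.1%). Both calls were lost in the 7-library fit in which replicates 3 and 4 of the wild type had a term of their own. They were also lost with any 1 of the 5 libraries left out in addition. Rab6b had passed the filter only through wild-type replicates 1 and 2, where it was high.

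The direction of the family as a whole rested on wild-type replicates 3 and 4. With all 7 libraries, 35 of the 47 members were lower in the mutant libraries as deposited, 35 after median-of-ratios scaling and 29 after quantile normalization, but 19 without wild-type replicates 3 and 4. Of all genes tested, 50.4% were lower with 7 libraries, and 6018 of 13392 were lower without wild-type replicates 3 and 4. The median log2 difference of FPKM + 1, mutant minus wild type, was -0.13 over the 47 members with 7 libraries and 0.08 with 5, and over all genes -0.00 and 0.03. This scale understates the change of low genes. In 26 of 47 members (55.3%) wild-type replicates 3 and 4 both lay above the other 5 libraries, against 25.1% of all genes. In 3 members, Rab24, Rab40c and Rab42 (6.38%), both lay below, against 25.2%. The 26 include most of the abundant housekeeping members: Rab1, Rab1b, Rab2a, Rab5a, Rab5b, Rab5c, Rab7, Rab8a, Rab10, Rab11a and Rab14.

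By role, the classes were compared through the median over their members, as a description without a test. With 7 libraries the median log2 difference was -0.14 for secretory members (15 of 16 lower, 11 after quantile normalization), -0.08 for endosomal members (11 of 18 lower, 9 after it) and -0.23 for other members (9 of 13 lower under both). With wild-type replicates 3 and 4 left out, the medians were 0.09 (6 of 16 lower), 0.09 (6 of 18 lower) and -0.10 (7 of 13 lower). The secretory median thus changed sign with these 2 libraries, as did the endosomal one. As a deviation from each gene's mean, the secretory median over the wild-type libraries, in order, was -0.15, -0.20, 0.22 and 0.37, and over the mutant ones -0.17, -0.10 and -0.09. The mutant libraries thus lay close to wild-type replicates 1 and 2. Endosomal members showed -0.16, -0.16, 0.26 and 0.26, then -0.06, -0.08 and 0.03. Members with other roles were the only class whose 3 mutant values (-0.25 to -0.09) all lay below those of wild-type replicates 1 and 2 (-0.05 and -0.04).

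**Figure D2:**
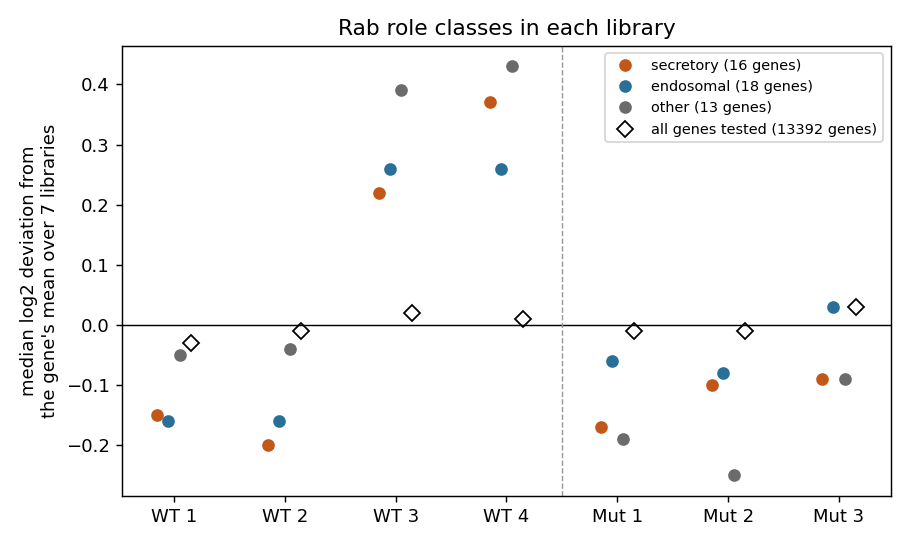
Median log2 deviation of FPKM + 1 from the gene's mean over the 7 libraries, for each Rab class (filled circles) and for all 13392 genes tested (open diamonds), by library. The 3 classes lie between 0.22 and 0.43 in wild-type replicates 3 and 4 and between -0.25 and 0.03 elsewhere, while all genes stay between -0.03 and 0.03.

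Recycling endosomes held 3 of the 4 members that were higher without overlap in the Socs2-Δs libraries. They were 3 of the 9 recycling members tested. Over all tested Rab genes that share was 8.51%, over all genes it was 12.5%, and no difference between these was tested. Rab4a, which sorts cargo from early endosomes back to the surface, measured 27.7, 33.2, 45.0 and 15.5 FPKM in the wild-type libraries and 51.1, 54.7 and 71.3 in the mutant libraries. Every mutant library lay above every wild-type one, at 59.0 ± 10.8 FPKM (SD, n = 3) against 30.4 ± 12.2 (SD, n = 4), which is 1.94 times as high. The log2 difference was 1.02 (SE 0.33, limma adjusted p = 0.210), and 0.92 (SE 0.18, adjusted p = 0.0661) without wild-type replicates 3 and 4. Its paralogue Rab4b overlapped between the groups: 25.4, 27.4, 16.7 and 25.7 FPKM in wild type against 19.3, 25.2 and 22.4, a log2 difference of -0.07 (SE 0.21). With 5 libraries its mutant libraries were the lower ones, without overlap (-0.24, limma adjusted p = 0.393).

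Rab15, a regulator of early and recycling endosomes, measured 13.9, 13.4, 17.8 and 7.07 FPKM in wild-type and 25.2, 24.3 and 24.3 in mutant libraries. The mutant libraries lay close together, at 24.6 ± 0.526 FPKM (SD, n = 3) against 13.0 ± 4.43 (SD, n = 4), and lay above all wild-type libraries. The log2 difference was 0.93 (SE 0.27, limma adjusted p = 0.183). Without wild-type replicates 3 and 4 it was 0.80 (SE 0.09) and Rab15 rose (adjusted p = 0.0299); leaving out any 1 of these 5 libraries ended that call.

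Rab25, the epithelial relative of Rab11 on apical recycling endosomes, measured 32.6, 36.8, 43.8 and 12.8 FPKM in wild-type and 47.8, 45.6 and 52.5 in mutant libraries. The groups did not overlap, although wild-type replicate 3 came close to mutant replicate 2. The log2 difference was 0.74 (SE 0.38, limma adjusted p = 0.326), and 0.48 (adjusted p = 0.107) without wild-type replicates 3 and 4. Rab4a, Rab15, Rab25, Rab17 and Rab20 were each lowest among the wild-type libraries in replicate 4, which also had the lowest luminal marker sum. So were the tested members Rab24, Rab27a, Rab40c and Rab42, and the share over all genes was not computed. The part of the luminal sum in these low values of replicate 4 was not tested. Rab17, of epithelial transcytosis, had 4.22 FPKM there and 6.62 to 9.08 in the other wild-type libraries. It reached 15.0 FPKM in mutant replicate 3 and 6.20 and 6.75 in mutant replicates 1 and 2, so that its groups overlapped (log2 difference 0.33, SE 0.33; 0.26 with 5 libraries).

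The promoters of the 2 RefSeq-matched genes of this group are shown because both members were higher without overlap; Rab4a has no entry in the promoter table. Each runs from 250 bases before to 50 after the gene's start in build GRCm38.p6, 5′ to 3′ on the gene's strand. Capitals mark TTCNNNGAA, the core of the STAT binding motif, and CCAAT and GGGCGG on either strand. For Rab15, which has 4 starts in the table, the farthest upstream is printed.
Rab25, chr3:88548230-88548529, minus strand: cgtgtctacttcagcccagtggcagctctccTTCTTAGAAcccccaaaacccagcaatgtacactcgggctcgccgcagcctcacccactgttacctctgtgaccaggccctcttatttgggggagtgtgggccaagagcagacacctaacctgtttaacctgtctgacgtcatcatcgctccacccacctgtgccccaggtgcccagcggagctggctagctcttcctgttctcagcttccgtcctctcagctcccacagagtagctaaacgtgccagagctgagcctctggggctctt
Rab15, chr12:76822475-76822774, minus strand: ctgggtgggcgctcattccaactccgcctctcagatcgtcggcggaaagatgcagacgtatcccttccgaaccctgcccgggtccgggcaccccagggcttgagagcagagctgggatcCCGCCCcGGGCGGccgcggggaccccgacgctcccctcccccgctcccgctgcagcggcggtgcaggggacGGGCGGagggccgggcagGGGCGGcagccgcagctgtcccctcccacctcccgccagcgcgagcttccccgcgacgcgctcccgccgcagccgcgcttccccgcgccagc
The Rab25 window holds 1 TTCNNNGAA and is 58.3% G and C. The Rab15 window printed holds 0 of these and 4 GGGCGG, and is 76.3% G and C.

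The groups overlapped for the remaining recycling members. Rab11a, the general marker of recycling endosomes, measured 33.2, 40.1, 66.6 and 61.3 FPKM in wild-type and 31.1, 33.8 and 43.8 in mutant libraries. Its log2 difference of -0.42 (SE 0.28) became -0.02 without wild-type replicates 3 and 4. Rab11b differed by 0.16 (SE 0.17; 0.06 with 5 libraries), Rab35 by 0.02 (SE 0.14; -0.01 with 5) and Rab14 by -0.05 (SE 0.19). Rab14 changed sign, to 0.18, without wild-type replicates 3 and 4. Taking the 9 recycling members, 6 were higher and 3 lower, with a median of 0.16, and 0.18 with 5 libraries.

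Early endosomal members were lower with 7 libraries in 6 of 7 genes, with a median of -0.23, and near 0 without wild-type replicates 3 and 4 (median 0.00, 3 of 7 lower). Rab31, which acts between the trans-Golgi network and endosomes, was the member of smallest p among them. It measured 9.65, 8.24, 15.1 and 14.7 FPKM in wild-type and 7.85, 6.92 and 6.48 in mutant libraries. The groups did not overlap, but wild-type replicate 2 lay close to mutant replicate 1. The log2 difference was -0.64 (SE 0.23, limma adjusted p = 0.230), and -0.30 (adjusted p = 0.270) without wild-type replicates 3 and 4. Rab5c, a fusion regulator of early endosomes, measured 62.6, 71.1, 92.7 and 98.4 FPKM in wild-type and 61.3, 66.6 and 67.4 in mutant libraries. Its difference of -0.29 (SE 0.21) was -0.04 with 5 libraries. Rab5a, Rab5b, Rab21 and Rab22a lay between -0.36 and -0.12 with 7 libraries and between -0.02 and 0.15 with 5. Rab20, of phagosomes and endosomes, was the exception to the direction, with 10.6, 10.8, 12.0 and 3.94 against 10.6, 12.3 and 16.0 FPKM (log2 difference 0.51, SE 0.35; 0.24 with 5 libraries).

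The 2 late endosomal members tested overlapped between the groups. Rab7, which directs late endosomes to lysosomes, measured 80.7, 82.1, 96.3 and 118 FPKM in wild-type and 87.9, 85.9 and 88.9 in mutant libraries. The mutant libraries lay within the wild-type range (log2 difference -0.09, SE 0.19; 0.10 with 5 libraries). Rab9, of transport from late endosomes to the trans-Golgi network, differed by -0.28 (SE 0.26) and by 0.13 with 5 libraries.

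**Figure D3:**
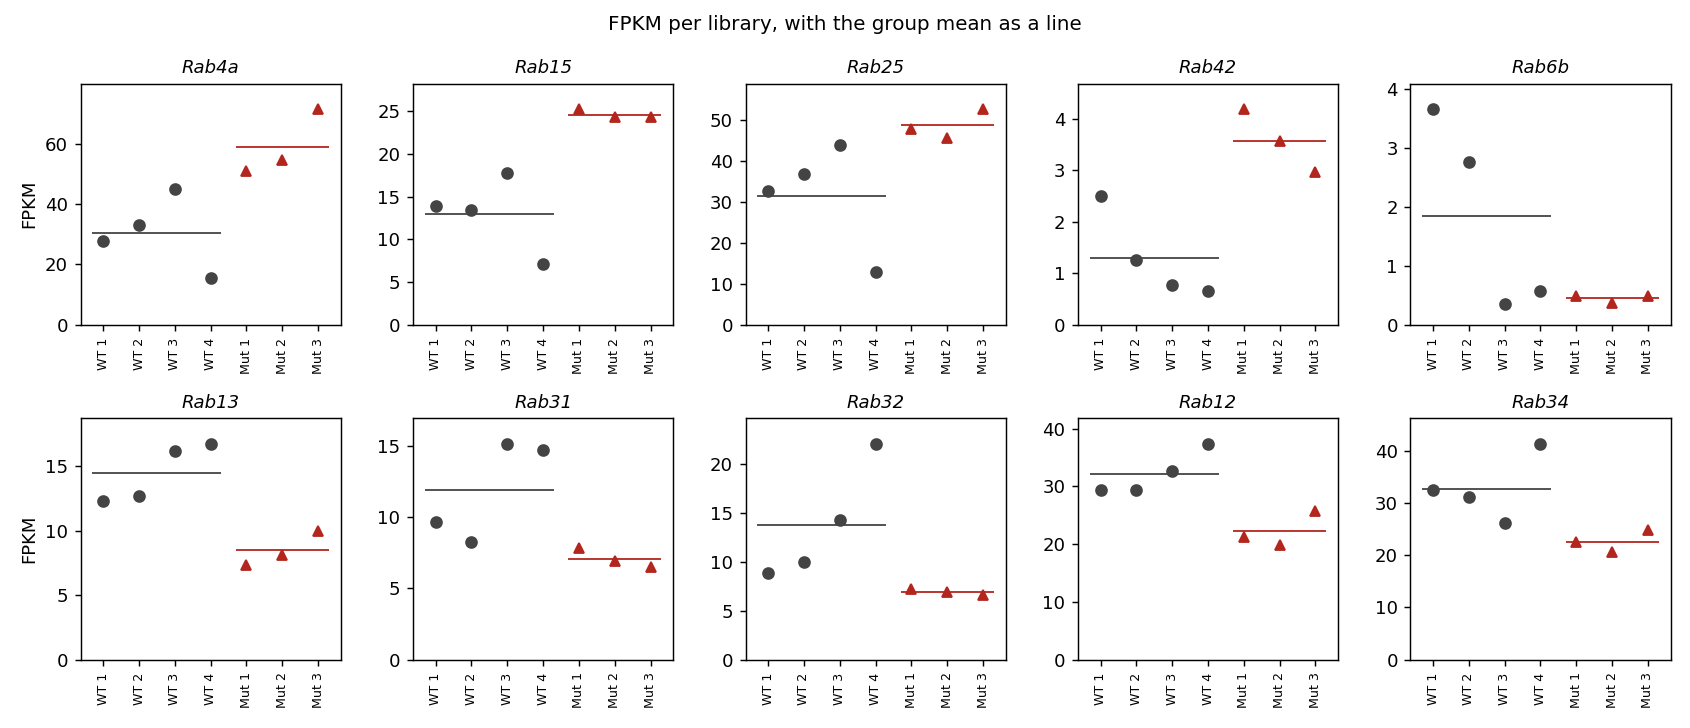
FPKM per library (WT, wild type, circles; Mut, Socs2-Δs, triangles) for 10 Rab genes, each on its own axis from 0, with the group mean as a line. Rab4a, Rab15, Rab25 and Rab42 are higher in every mutant library, Rab13, Rab31, Rab32, Rab12 and Rab34 lower in every one, and Rab6b is high only in wild-type replicates 1 and 2.

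Of the 9 secretory members on the route from the endoplasmic reticulum through the Golgi, 0 passed the test with 7 libraries. Of all genes tested, 0.0448% passed it. Summed milk-secretory markers were higher in every mutant library. Their defining genes did not pass that test either: limma adjusted p was 0.210 for Csn2, 0.0817 for Wap and 0.0847 for Lalba. Rab1, of the first transport step to the Golgi, measured 73.1, 76.2, 127 and 105 FPKM in wild-type and 87.2, 88.1 and 101 in mutant libraries. The mutant libraries lay between wild-type replicates 1 and 2 below and 3 and 4 above, with a log2 difference of -0.01 (SE 0.24, limma adjusted p = 0.976), and 0.30 (adjusted p = 0.254) with 5 libraries. Rab1b, which shares that step, measured 88.4, 86.6, 95.7 and 127 FPKM against 79.8, 85.3 and 83.9. Its groups did not overlap, but wild-type replicate 2 and mutant replicate 2 were close (log2 difference -0.24, SE 0.19; -0.08 with 5 libraries). Rab2a, of Golgi transport, measured 70.3, 78.2, 138 and 119 FPKM in wild-type and 72.9, 75.8 and 96.3 in mutant libraries (-0.26, SE 0.28; 0.13 with 5 libraries). Rab2b, Rab30, Rab33b and Rab43, at means of 5.14 to 8.14 FPKM, lay between -0.22 and -0.06. The 9 members of this route had log2 differences from -0.77 to -0.01 and a median of -0.16, and a median of 0.11 with 5 libraries.

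Rab6b, a Golgi Rab best known from neurons, gave the largest difference of the family once wild-type replicates 3 and 4 were set aside. It measured 3.65, 2.76, 0.347 and 0.580 FPKM in the wild-type libraries, in order, against 0.487, 0.373 and 0.489 in the mutant ones. Wild-type replicates 1 and 2 stood alone, with 441 and 314 recovered reads against 35 to 56 in each of the other 5 libraries. With 7 libraries the log2 difference was -0.77 (SE 0.45, limma adjusted p = 0.363). Without wild-type replicates 3 and 4 it was -1.53 (SE 0.15), with a ratio of mean FPKM of 0.140. Rab6b then fell (limma adjusted p = 0.0233), a call that was lost with any further library left out. Rab6b passed the filter of 1 FPKM only through wild-type replicates 1 and 2, since the other 5 libraries lay between 0.347 and 0.580. The call therefore rests on the libraries that admitted the gene, and no support is drawn from it. Neuron and glia markers (10 of 10 found) summed to 154, 141, 74.3 and 185 FPKM over the wild-type libraries and to 141, 145 and 162 over the mutant ones, and did not move with Rab6b. Snap25, a defining neuronal marker, lay between 0 and 0.0385 FPKM in all libraries.

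Its paralogue Rab6a, the widely expressed form, did not follow it. Rab6a measured 25.8, 21.6, 32.3 and 28.8 FPKM in wild-type and 28.9, 25.0 and 25.3 in mutant libraries, with overlapping groups (log2 difference -0.02, SE 0.18; 0.16 with 5 libraries). The promoters of this pair are set side by side because the paralogues differed in this way, from the same table and build and with the same capitals.
Rab6b, chr9:103111824-103112123, plus strand: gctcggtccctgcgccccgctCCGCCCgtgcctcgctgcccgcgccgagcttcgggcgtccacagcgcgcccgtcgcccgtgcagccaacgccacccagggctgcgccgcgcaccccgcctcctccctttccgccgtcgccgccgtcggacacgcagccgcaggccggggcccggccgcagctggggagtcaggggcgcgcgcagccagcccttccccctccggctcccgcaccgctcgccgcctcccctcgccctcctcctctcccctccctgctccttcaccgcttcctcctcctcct
Rab6a, chr7:100607336-100607635, plus strand: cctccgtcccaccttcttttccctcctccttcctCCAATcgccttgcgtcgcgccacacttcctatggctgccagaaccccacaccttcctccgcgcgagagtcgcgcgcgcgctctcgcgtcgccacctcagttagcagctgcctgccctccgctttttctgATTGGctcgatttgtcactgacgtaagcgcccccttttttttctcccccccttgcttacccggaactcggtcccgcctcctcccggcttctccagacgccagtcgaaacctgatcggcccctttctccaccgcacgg
The Rab6b window is 78.7% G and C with 1 GGGCGG, and the Rab6a window is 62.7% G and C with 2 CCAAT. Neither holds TTCNNNGAA.

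Members that deliver cargo to the surface were lower in all 4 genes with 7 libraries, and in 2 of 4 with 5. Rab13, of surface delivery and tight junctions, had the smallest p of the family with 7 libraries. It measured 12.3, 12.7, 16.2 and 16.7 FPKM in wild-type and 7.36, 8.13 and 9.99 in mutant libraries. Every mutant library lay below every wild-type one, at 8.49 ± 1.35 FPKM (SD, n = 3) against 14.5 ± 2.31 (SD, n = 4), a ratio of 0.587. The log2 difference was -0.70 (SE 0.18, limma adjusted p = 0.159), and -0.52 (SE 0.14, adjusted p = 0.128) without wild-type replicates 3 and 4. Rab8b, of traffic from the trans-Golgi network, measured 8.33, 8.02, 17.7 and 17.7 FPKM in wild type against 6.08, 8.84 and 6.26. The groups overlapped, and only wild-type replicates 3 and 4 stood clear of the rest (log2 difference -0.72, SE 0.32, limma adjusted p = 0.284; -0.20, SE 0.17, with 5 libraries). Its relative Rab8a differed by -0.08 (SE 0.23), and by 0.24 with 5 libraries. Rab10, which carries GLUT4 vesicles in fat and basolateral cargo in epithelium, differed by -0.21 (SE 0.21), and by 0.08 with 5 libraries.

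Of the Rabs of regulated exocytosis, 3 were tested. Rab3d, found on granules of exocrine cells, measured 19.5, 18.4, 25.9 and 35.9 FPKM in wild-type and 23.0, 22.2 and 26.2 in mutant libraries. The mutant libraries lay within the wild-type range but above wild-type replicates 1 and 2 (log2 difference -0.02, SE 0.24; 0.31 with 5 libraries, limma adjusted p = 0.213). Rab3a, the synaptic vesicle form, differed by 0.15 (SE 0.18; 0.11 with 5 libraries), and Rab27a, which docks granules at the membrane, by -0.12 (SE 0.15; -0.14 with 5).

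**Figure D4:**
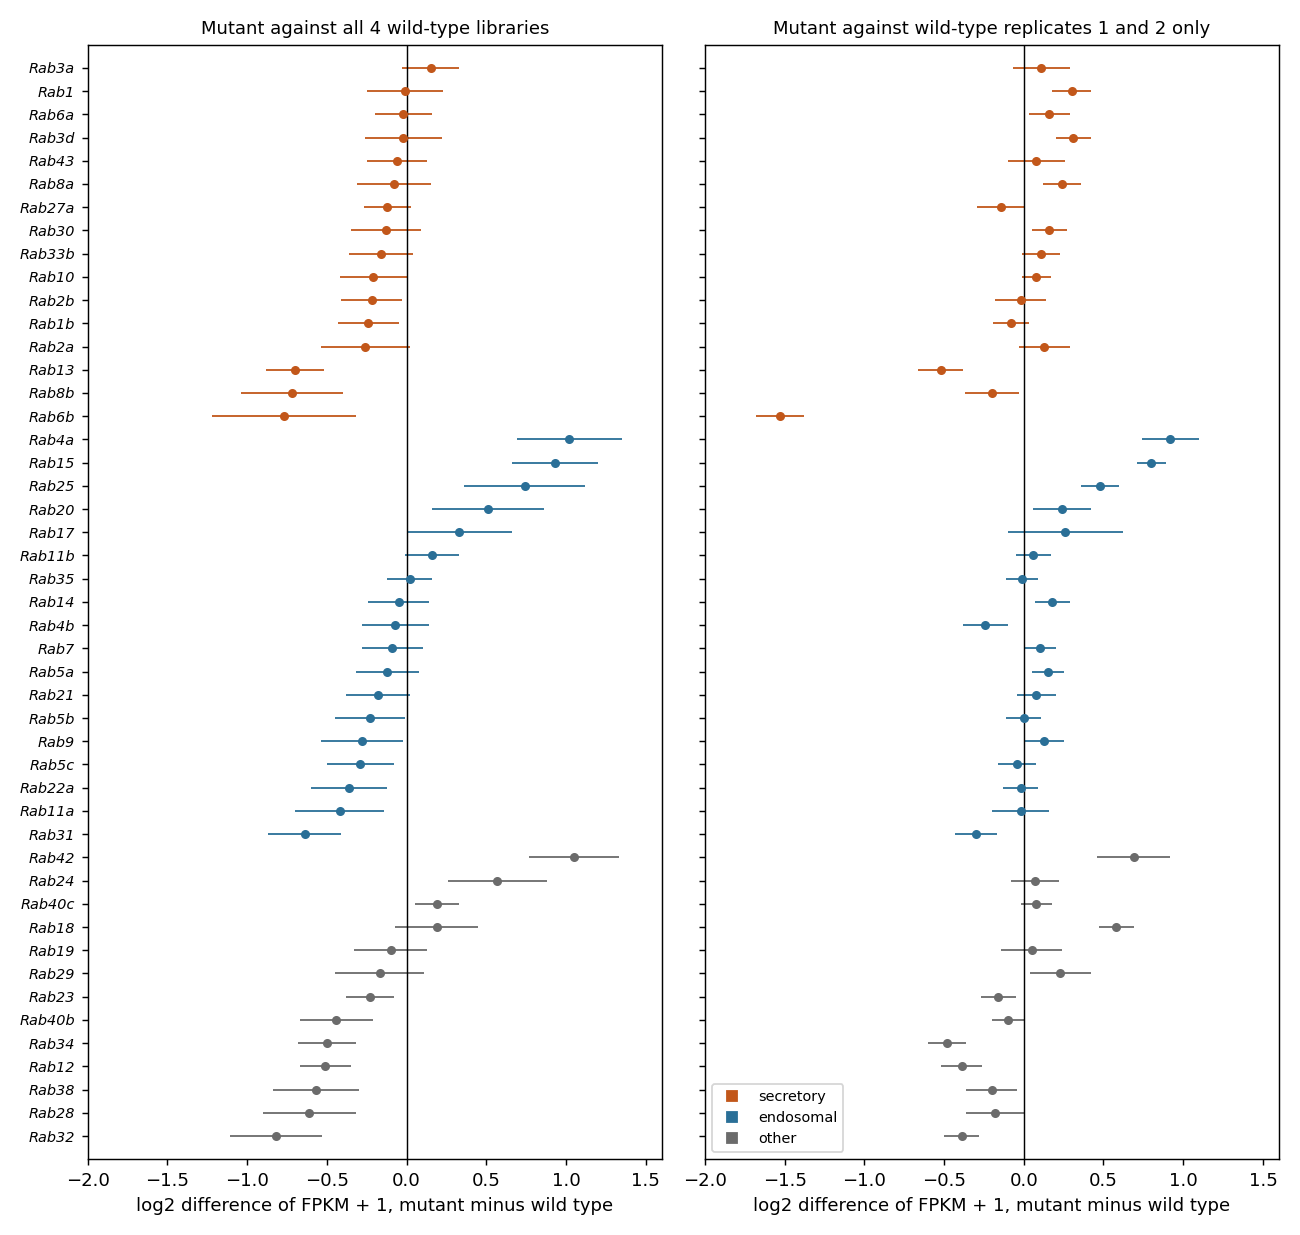
Log2 difference of FPKM + 1, mutant minus wild type, with its SE, for the 47 tested Rab genes against all 4 wild-type libraries (left) and against wild-type replicates 1 and 2 (right), coloured by role. Rab4a, Rab15 and Rab25 stay to the right of 0 and Rab13, Rab12, Rab32 and Rab34 to the left in both panels, while 9 of the 16 secretory members move from below to above 0.

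Among members with other roles, the highest and the lowest differences of the family with 7 libraries were found. Rab42, a little studied member, measured 2.51, 1.25, 0.767 and 0.667 FPKM in wild-type and 4.18, 3.57 and 2.96 in mutant libraries. All mutant libraries lay above all wild-type ones, on 10 to 72 recovered reads per library, with a log2 difference of 1.05 (SE 0.28, limma adjusted p = 0.167) and 0.69 (adjusted p = 0.178) with 5 libraries. Rab32, of melanosomes and other lysosome-related organelles, measured 8.80, 9.99, 14.3 and 22.0 FPKM in wild-type and 7.19, 6.93 and 6.65 in mutant libraries. The groups did not overlap, and wild-type replicate 4 was highest (log2 difference -0.82, SE 0.29, limma adjusted p = 0.226; -0.39 with 5 libraries). Its close relative Rab38 differed by -0.57 (SE 0.27), and by -0.20 with 5 libraries, with overlapping groups in both.

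Rab34, of primary cilia, measured 32.6, 31.1, 26.2 and 41.3 FPKM in wild-type and 22.5, 20.6 and 24.8 in mutant libraries. The groups did not overlap, and the log2 difference was nearly the same with and without wild-type replicates 3 and 4 (-0.48 without, limma adjusted p = 0.0990; -0.50 with, SE 0.18, adjusted p = 0.235). Rab12, which sends cargo to lysosomes and autophagy, measured 29.3, 29.4, 32.6 and 37.3 FPKM in wild-type and 21.3, 19.9 and 25.7 in mutant libraries. Again no library overlapped (log2 difference -0.51, SE 0.16, limma adjusted p = 0.204; -0.39 with 5 libraries). The ciliary members Rab23 (-0.23, SE 0.15) and Rab28 (-0.61, SE 0.29) were lower by values that shrank to -0.16 and -0.18 with 5 libraries. Rab40b, a SOCS-box protein of the family, differed by -0.44 (SE 0.23) and by -0.10 with 5 libraries, and its paralogue Rab40c by 0.19 (SE 0.14) and 0.08.

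Rab18, a Rab of lipid droplets and the endoplasmic reticulum, differed in its value with the choice of wild-type libraries. It measured 29.8, 31.0, 60.0 and 46.7 FPKM in wild-type and 42.8, 45.1 and 49.8 in mutant libraries. Mutant libraries lay above wild-type replicates 1 and 2, below replicate 3 and on both sides of replicate 4. The log2 difference was 0.19 (SE 0.26, limma adjusted p = 0.694) with 7 libraries and 0.58 (SE 0.11, adjusted p = 0.0661) with 5. Rab24, of autophagy, had the reverse pattern among wild-type libraries: 27.2 and 31.9 FPKM in replicates 1 and 2 but 14.5 and 14.2 in replicates 3 and 4, against 27.2, 30.7 and 35.7 in mutant glands. Its difference of 0.57 (SE 0.31) became 0.07 with 5 libraries. The remaining members Rab19 (-0.10, SE 0.23) and Rab29 (-0.17, SE 0.28) overlapped between the groups and were at 0.05 and 0.23 with 5 libraries.

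The members whose groups did not overlap, 4 higher and 8 lower, were set against markers of the cell types, as ratios chosen after the data were seen. Per 1000 FPKM of summed luminal markers, Rab4a measured 21.2, 21.4, 23.7 and 18.7 in wild type and 28.3, 35.5 and 30.9 in mutant glands, still without overlap, a ratio of 1.48. For Rab15 (8.51 to 10.6 against 10.5 to 15.8), Rab25 (15.4 to 25.0 against 22.8 to 29.6) and Rab42 (0.404 to 1.92 against 1.28 to 2.32) the groups overlapped on this scale. Against adipocyte, fibroblast or macrophage markers these 4 genes could not be compared in this way, since each of those sums was itself lower in every mutant library. Milk-secretory alveolar markers were not used as a scale for any member. Their sum was itself higher in every mutant library, at 59408 to 75851 FPKM against 3477 to 31961 in wild type. The ratios of the 8 lower members share this limit: a lower marker sum alone raises a ratio, and a higher one lowers it. All 13 luminal markers tested were higher in the mutant libraries by log2 difference. Of these 8 members, 6 stayed lower per luminal marker (all but Rab1b and Rab23). Per fibroblast, macrophage or adipocyte marker 0 stayed lower. Per adipocyte marker 6 of the 8 were higher without overlap and 2 overlapped (Rab31 and Rab32). Rab23 was higher without overlap per fibroblast marker and Rab1b per macrophage marker, and the other 7 overlapped on each of these scales. Per macrophage marker Rab32, for example, measured 18.8 to 35.9 in wild type and 20.7 to 26.8 in mutant glands. Fibroblast markers (8 of 8 found, Pdgfra and Dpt above 0 in all libraries) summed to 2426 to 3193 FPKM in wild-type and 1495 to 2098 in mutant libraries. Macrophage markers (8 rows for 9 symbols, 2 of which name 1 gene; Csf1r and Emr1 above 0 in all) summed to 386 to 757 and 268 to 335. Adipocyte, fibroblast and macrophage sums were thus lower in every mutant library, as the 8 lower members were, while luminal sums overlapped between the groups. The part of these markers in the differences was not tested.

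The remaining 11 members had a mean under 1 FPKM and were not tested. They are Rab3b, Rab3c, Rab9b, Rab26, Rab27b, Rab33a, Rab36, Rab37, Rab39, Rab39b and Rab44, with means from 0.00362 to 0.945 FPKM. Nearest to the threshold were Rab37 below it, at 0.945, and Rab6b above it, at 1.24. Rab37, a Rab of secretory granules, measured 0.517, 0.682, 0.569 and 1.36 FPKM in wild-type and 0.700, 2.25 and 0.528 in mutant libraries. Its highest values fell in wild-type replicate 4 and mutant replicate 2, the 2 libraries where lymphocyte markers (8 of 8 found) summed to 275 and 204 FPKM, against 6.89 to 13.5 in the other 5; their part was not tested. Rab27b, the second granule-docking form, measured 0.646, 0.620, 1.01 and 0.671 FPKM in wild-type and 0.477, 0.377 and 0.363 in mutant libraries, without overlap and below its paralogue Rab27a in every library. Rab3c was listed at 0 in 3 libraries, with 0 to 2 recovered reads per library, the smallest whole numbers that fit its values.

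Genes that regulate Rabs, taken with Rab effectors, leaned the other way from the Rabs themselves with 7 libraries. The membrane cycle list did not, with 5 of its 8 genes lower. Of 115 tested genes, out of 125 in 4 lists (Rab membrane cycle, GEFs, GAPs and effectors), 79 were higher in the mutant libraries, with a median log2 difference of 0.21, and 80 and 76 were higher after median-of-ratios scaling and quantile normalization. Without wild-type replicates 3 and 4, 77 were higher with a median of 0.13. Of all 13392 genes tested, 6638 were higher with 7 libraries and 7372 without those replicates. With 7 libraries 0 of them were called, and 34 had an unadjusted p under 0.05 (28 higher, 6 lower), where 0.0448% and 18.1% of all genes tested did. Without wild-type replicates 3 and 4, 4 rose and 0 fell (1.94% of all genes were called), namely Sytl1, Myo5c, Tbc1d8 and Tbc1d14. All 4 calls were lost with a term for those replicates in the 7-library fit, and with any 1 of the 5 libraries left out.

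Of the effectors, 28 of 37 were higher, with a median of 0.21, and 0.20 with 5 libraries. Sytl1, a synaptotagmin-like effector of Rab27, measured 16.9, 17.5, 12.4 and 3.54 FPKM in wild-type and 34.8, 37.1 and 41.2 in mutant libraries. All mutant libraries lay above all wild-type ones (log2 difference 1.70, limma adjusted p = 0.168), and Sytl1 rose against wild-type replicates 1 and 2, in the call just described (1.08, adjusted p = 0.0234). Myo5c, an epithelial myosin that moves secretory granules, measured 6.43, 6.95, 3.35 and 0.794 FPKM against 13.4, 10.8 and 12.5, and rose in the same comparison (0.78, adjusted p = 0.0494). The Rab11 effectors Rab11fip4 (2.71 ± 0.426 FPKM in wild type, n = 4, and 6.28 ± 1.93 in mutant glands, n = 3, SD) and Rab11fip5 (17.6 ± 2.39 and 28.4 ± 1.41) were higher without overlap, with limma adjusted p = 0.132 and 0.153 (0.123 and 0.0533 with 5 libraries). Sytl3 measured 0.738 ± 0.0667 and 1.71 ± 0.121 FPKM (SD, n = 4 and 3, limma adjusted p = 0.160, and 0.0661 with 5 libraries). It was under 1 FPKM in every wild-type library and passed the filter only through the mutant ones. The p-values of Sytl3 are therefore not read as support. For Sytl1 and Myo5c the lowest library was again wild-type replicate 4, lowest in luminal markers. The same held for Rab11fip4, Rab11fip5, Sytl3, Tbc1d8, Mon1a and Rab3ip, but not for Tbc1d13, Tbc1d14, Tbc1d22b or Rabggta.

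Of the GAPs, 24 of 32 were higher (median 0.21, and 0.18 with 5 libraries). Tbc1d8 measured 8.63, 8.31, 4.11 and 3.14 FPKM in wild-type and 13.8, 14.4 and 14.0 in mutant libraries, with a log2 difference of 1.19 (limma adjusted p = 0.166). It rose without wild-type replicates 3 and 4 (0.67, adjusted p = 0.0405), as did Tbc1d14, a Rab11-binding regulator of autophagy (0.63, adjusted p = 0.0478; 12.7, 11.9, 17.4 and 13.3 against 20.4, 20.1 and 18.5 FPKM). Tbc1d13 (25.4 ± 3.39 and 38.0 ± 0.713 FPKM, SD, n = 4 and 3) and Tbc1d22b (7.26 ± 1.86 and 12.4 ± 0.510) were higher without overlap and did not pass (log2 differences 0.57 and 0.72, and 0.68 and 0.44 with 5 libraries).

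Of the GEFs, 24 of 38 were higher (median 0.24, and 0.11 with 5 libraries). Mon1a, part of the exchange factor for Rab7, measured 9.34, 13.4, 8.40 and 7.72 FPKM in wild-type and 15.7, 17.0 and 23.2 in mutant libraries. Rab3ip, the Rab8 exchange factor Rabin8, measured 11.9 ± 2.51 FPKM and 19.4 ± 3.26 (SD, n = 4 and 3). Their limma adjusted p were 0.159 and 0.186, without overlap (0.176 and 0.0991 with 5 libraries). Rab3il1, a relative of Rab3ip, went the other way, with 14.4 ± 2.83 and 8.89 ± 0.795 FPKM (adjusted p = 0.183, and 0.180 with 5 libraries). In the membrane cycle, where prenylation and escort proteins attach Rabs to membranes, 3 of 8 were higher (median -0.12, and 0.10 with 5 libraries). Rabggta, a subunit of the enzyme that attaches the lipid, measured 14.0, 15.7, 5.51 and 5.62 FPKM in wild-type and 16.8, 19.7 and 20.0 in mutant libraries. Its low libraries were wild-type replicates 3 and 4, and the log2 difference was 0.96 with 7 and 0.33 with 5 libraries. Rabac1 (-0.47; 0.06 with 5 libraries) and Chml (-0.33; -0.19 with 5) did not pass.

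The promoters of the family were searched for 6 short motifs, as a description of the sequence. RefSeq promoters in GRCm38.p6 matched 48 of 58 members by Entrez ID, with 60 windows. TTCNNNGAA, a palindrome, was found in 5 windows (8.33%), those of Rab11a, Rab15, Rab19, Rab25 and Rab34, against 8.30% of all 32851 windows. GGGCGG, on either strand, was found in 41 windows (68.3%, against 35.7%), and CCAAT in 26 (43.3%, against 37.4%). The E-box CACGTG, a palindrome, was found in 6 (10.0%, against 7.15%), and TATAAA on either strand in 4 (6.67%, against 13.6%). TTCCNGGAA, a stricter form contained in TTCNNNGAA, was found in 0 (against 1.15%). CCAAT read on the other strand can share bases with GGGCGG, and starts of 1 gene can share sequence, so windows are not independent; the Rab15 match lies at a start other than the one printed. The expression values use build mm9, and no coordinates were converted. Rab promoters were also richer in G and C, with a median of 61.2% against 52.7%.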

How the data were processed

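Poly(A) RNA of 7 mammary gland samples was used; 9 other samples (ChIP-seq, DNase-seq) are not analysed here. The authors deposited FPKM for 24187 genes; per the submitters' processing notes, CASAVA, Bowtie2, STAR and DESeq2 were used with build mm9, without roles or versions (annotation, counting tool and strand use: not given in the sources used here), so overlapping genes and close paralogues may share reads. Libraries were grouped by title. Reads behind the values were recovered from the steps between FPKM values (within 0.02 of a whole read) for 21042 of 21044 genes with any value, leaving 1 unknown constant per gene. The smallest whole numbers that fitted were taken, so the reads of a gene, and the depth summed from them, are minimum values. limma 3.58.1 in R 4.3.3 (trended empirical Bayes) was run on log2(FPKM + 1), without covariates, on genes averaging 1 FPKM or more, and p was adjusted by Benjamini-Hochberg over all 13392; the fit was tested on simulated data. Alternatives changed the pseudocount (0.1), the filter (none, or 5 FPKM), the scaling, the libraries, and the covariates. Members, role classes, gene lists and alternatives were chosen with earlier results of these data known. Genes named with values were members called in either comparison and their paralogues, the 4 of smallest p and the 3 of highest level per class, and per regulator list the 3 of smallest p and up to 4 called; other members are given for completeness, and those described library by library beyond the rule were picked after their values were seen. SD are between libraries.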

Additional observations from a re-analysis of the deposited data

How the results depend on the processing

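The count of called Rab genes was 0 under every alternative tried except 1: without wild-type replicates 3 and 4 it was 2, and the count of called regulator and effector genes was then 4 in place of 0. Among all genes tested, 6 were called, and 1 with a pseudocount of 0.1, 1 without a filter, 0 at a mean of at least 5 FPKM, 6 with median-of-ratios scaling, 28 with quantile normalization, 0 with the term for wild-type replicates 3 and 4, 260 without them, and 0 to 42 when 1 library was left out, with or without those 2. The secretory median was 0.09 both without wild-type replicates 3 and 4 and with a term for them, and ran from -0.25 to 0.08 when 1 library was left out; the endosomal median then ran from -0.14 to 0.13. With members of doubtful role left out, the class medians were -0.13, -0.15 and -0.23 (secretory, endosomal, other).

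Several uncalled differences near 0 changed sign. With quantile normalization Rab1 was at 0.24, Rab14 at 0.12, Rab6a at 0.05 and Rab7 at 0.15. Without wild-type replicates 3 and 4, and equally with a term for them, Rab1 was at 0.30, Rab14 at 0.18, Rab2a at 0.13, Rab6a at 0.16 and Rab7 at 0.10. With 1 library left out, Rab1 ran from -0.13 to 0.34, Rab14 from -0.13 to 0.23, Rab2a from -0.42 to 0.20, Rab5c from -0.41 to 0.05, Rab6a from -0.12 to 0.28 and Rab7 from -0.16 to 0.12. The cause of these shifts was not tested. Rab4a, Rab12, Rab13, Rab15, Rab25, Rab31, Rab32, Rab34, Rab42, Rab6b, Rab18, Rab1b and Rab8b kept their sign under all alternatives run for them. Their adjusted p ran from 0.0299 to 0.470 for Rab15 and from 0.0233 to 0.582 for Rab6b.

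The labels give both groups replicate numbers, but same-numbered libraries correlated in their deviations by 0.35, -0.10 and 0.28 for numbers 1 to 3, and mutant replicate 2 correlated best with wild-type replicate 4 (0.34), so the numbers were not taken as pairs. With the replicate block, 0 Rab genes and 0 genes over the whole table were called, with Rab1 at 0.04, Rab14 at 0.01, Rab6a at 0.01 and Rab7 at 0.02. Depth may limit Rab42 and Rab3c, whose recovered reads, as minimum values, were 10 to 72 and 0 to 2 per library.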
